A study of Mus musculus with 4 samples.

Results

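Genes for transcription factors of the osteoblast, the bone-forming cell, were followed in mouse skeletal stem cells (SSCs) with and without Mmp14. The set was defined by name as Sp7, Runx2, Runx1, Cbfb, Dlx3, Dlx5, Dlx6, Msx1 and Msx2, and a gene was taken when a probe set carried its symbol and no other. This left 7 of the 9 genes, out of 22180 genes with such a probe set, and all 7 were among the 12708 genes that passed the filter on dim signal. Runx2 was not analysed here, and the 2 probe sets listed for Msx1 also carry the symbol of its antisense transcript Msx1os, so Msx1 has no value of its own.

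The cells came from mice of 4 to 6 weeks and were held for 48 h in 3D collagen gel before RNA was taken. Of the 4 Affymetrix arrays, 2 were of wild-type cells (Mmp14+/+) and 2 of knockout cells (Mmp14-/-), so both groups share the gel, the time and the age range. Mmp14 encodes MT1-MMP, a membrane-bound protease that cuts fibrillar collagen. The labels give no strain, sex, deleted exon or sorting gate, and do not say whether replicates were separate animals or cultures; the p-values therefore reflect the scatter of these 4 samples alone, and that scatter could be technical.

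Osteoblasts arise from skeletal stem and progenitor cells through a sequence of transcription factors. RUNX proteins bind DNA as heterodimers with CBFB, and RUNX2 commits cells to the bone lineage. SP7 (osterix), a zinc finger protein that acts after RUNX2, is required for bone to form. The homeodomain proteins DLX3, DLX5, DLX6, MSX1 and MSX2 act in craniofacial and limb bone and several of them are known to respond to bone morphogenetic proteins (BMPs), while DLX5 is an activator of Sp7 and Runx2.

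Start-site sequences from RefSeq (GRCm38.p6) were held for 5 of the 9 named genes and for 3 of the 7 measured ones, Runx1, Msx2 and Cbfb. The 250 bases before the start are shown for Msx2 and for the 2 starts of Runx1, because these genes passed the test in opposite directions. Capitals mark the homeodomain core TAATTA and the SP-type GC box GGGCGG, and the Runx1 windows held no searched motif. The Msx2 window lies at chr13:53472781-53473030, and the Runx1 windows at chr16:92826075-92826324 and chr16:92697330-92697579, all on the minus strand.
Msx2: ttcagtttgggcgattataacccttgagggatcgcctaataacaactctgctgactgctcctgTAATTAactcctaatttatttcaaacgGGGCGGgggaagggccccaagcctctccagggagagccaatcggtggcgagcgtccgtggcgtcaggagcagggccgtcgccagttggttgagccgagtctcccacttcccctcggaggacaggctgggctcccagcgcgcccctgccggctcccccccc
Runx1, start at the higher coordinate: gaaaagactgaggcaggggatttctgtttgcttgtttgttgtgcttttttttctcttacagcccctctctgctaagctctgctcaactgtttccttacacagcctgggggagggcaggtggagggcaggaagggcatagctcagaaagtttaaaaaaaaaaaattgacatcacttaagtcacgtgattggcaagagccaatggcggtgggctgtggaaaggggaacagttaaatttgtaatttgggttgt
Runx1, start at the lower coordinate: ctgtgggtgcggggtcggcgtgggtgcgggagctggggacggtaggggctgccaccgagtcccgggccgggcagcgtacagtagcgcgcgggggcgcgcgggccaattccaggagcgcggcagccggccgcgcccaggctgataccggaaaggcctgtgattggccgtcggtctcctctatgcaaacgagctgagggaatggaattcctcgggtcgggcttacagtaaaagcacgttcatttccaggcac

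Each motif was searched on both strands. The homeodomain search took TAATTA or its variant TAATTG. The RUNX search took TGTGGT, the SP search took GGGCGG and the TCF/LEF search took CTTTGAT, and no match overlapped another in the windows shown. The Msx2 window held 1 homeodomain match, which begins 187 bases before the start, and 1 SP match, which begins 160 bases before it. Of 32851 windows of this length in the RefSeq table, 11.3% held a homeodomain match, 14.0% a RUNX match, 32.7% an SP match and 3.21% a TCF/LEF match. The 2 Runx1 windows differ in base composition, with 45.6% G and C at the higher coordinate and 67.6% at the lower one. The Cbfb window held 4 SP matches and none of the others. The single Runx1 probe set gives 1 value for the gene, so it does not separate the 2 starts.

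The targeted gene checks the labels. Mmp14 read 8.77 and 8.83 log2 in wild type against 5.77 and 5.84 in knockout, where 12.6% of the wild-type signal remained at its only probe set. Values are log2 intensities as deposited, and changes are knockout minus wild type on that scale. A gene is called when limma's p, adjusted by Benjamini and Hochberg over all 12708 genes, is below 0.05. Of all genes, 11.3% were called, 6.20% higher and 5.12% lower in knockout. Replicates of all tested genes correlated at 0.992 and 0.994 and arrays of different groups at 0.970 to 0.975. Xist, the RNA of the inactive X chromosome, was higher in knockout by 0.73 (limma adjusted p = 0.0155), the Y-linked Eif2s3y was lower by 0.69 (0.0474), and Kdm5d (−0.42) and Uty (−0.25) were not called. All 4 sex-linked genes had signal above the filter value in both groups, and their part in the results here was not tested. Without Mmp14 knockout replicate 1 the adjusted p of Xist was 0.0801, and that of Eif2s3y was 0.0648 to 0.176 without wild type replicate 1 or either knockout array.

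Of the 7 transcription factor genes, Sp7, Msx2 and Dlx5 fell in knockout cells, Runx1 rose, and Cbfb, Dlx3 and Dlx6 were not called. These are 4 called genes of 7, against a background of 11.3%. The median change of the 7 was −0.44, against −0.0041 over all genes tested, and the median size of change was 0.65 against 0.18. The wild-type and knockout arrays did not overlap in any of the 7, where 57.8% of all tested genes also did not overlap. Since these are bulk samples, fewer cells of a type and less RNA per cell cannot be told apart.

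**Figure D1:**
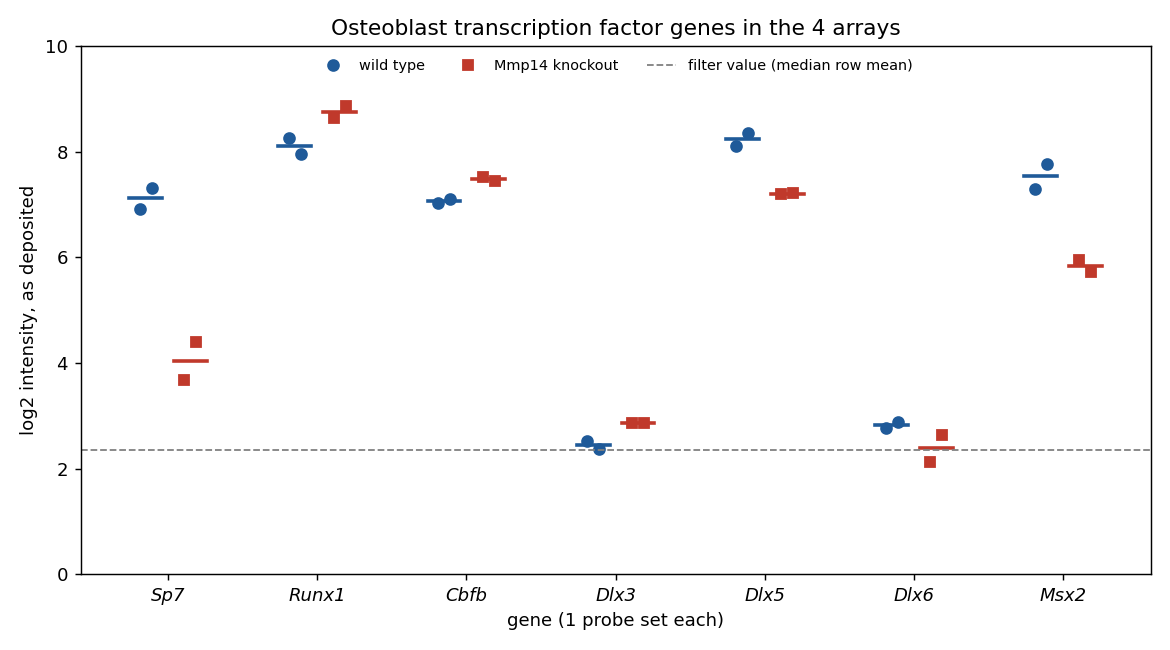
Log2 intensity (vertical axis) of the 7 genes (horizontal axis) in each of the 4 arrays, with circles for wild type, squares for Mmp14 knockout, replicate 1 to the left of replicate 2, and short lines at group means. Sp7 shows the widest distance between the groups, from 6.92 and 7.32 to 3.68 and 4.39, and Dlx3 and Dlx6 lie near the dashed filter value of 2.34.

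Sp7 read 6.92 and 7.32 log2 on the wild-type arrays against 3.68 and 4.39 on the knockout arrays. Both knockout arrays were well below both wild-type arrays, with 2.52 log2 between the nearest values of the groups. The change was −3.08 (SE 0.257, 95% interval −3.71 to −2.45, n = 2 per group, limma adjusted p = 0.00200), an 8.47-fold fall that left 11.8% of the wild-type signal. It was the fifth largest decrease of the 12708 genes. Sp7 replicates were less alike than those of most genes, 0.40 log2 apart in wild type and 0.72 in knockout, against median distances of 0.140 and 0.116. The call of Sp7 held in all 14 alternative analyses, with adjusted p from 4.79e-05 to 0.0429 and changes from −3.44 to −2.72. The knockout signal stayed above the filter value of 2.34 log2 in both arrays.

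Sp1, a broadly expressed relative, is the next gene after Sp7 on the chromosome in the RefSeq order. It read 5.84 and 5.86 in wild type against 5.85 and 5.85 in knockout, a change of −0.0019 (95% interval −0.25 to 0.24) that was not called. The neighbour of Sp7 thus lay within its own replicate spread.

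Among the RUNX complex genes, Runx1 encodes a RUNX protein best known from blood formation and also present in skeletal progenitors. Runx1 read 8.25 and 7.95 log2 in wild type against 8.64 and 8.86 in knockout, so each knockout array was above each wild-type array, by 0.39 at the nearest. The rise was 0.65 (SE 0.145, 95% interval 0.29 to 1.01, limma adjusted p = 0.0418), or 1.57-fold. The call was lost on leaving out wild type replicate 2 (adjusted p = 0.117), knockout replicate 1 (0.0692) or knockout replicate 2 (0.150), and with no filter on dim genes (0.0612), and over all 14 alternatives the adjusted p ran from 0.00598 to 0.213.

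Cbfb encodes the non-DNA-binding partner that stabilizes RUNX proteins on DNA. It read 7.03 and 7.11 in wild type against 7.51 and 7.45 in knockout, with the groups apart and both replicate distances under 0.10. The difference was 0.41 (95% interval 0.16 to 0.67, limma adjusted p = 0.0566) and was not called. It passed the threshold with the stricter filter on dim genes (adjusted p = 0.0169), trend and robust eBayes (0.0131) and quantile normalization (0.0493), and in none of the other 11 alternatives. Clic5, the tested neighbour of Runx2 in the RefSeq order, differed by 0.19 and was not called.

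Of the DLX genes, Dlx5 gave the clearest signal. It read 8.11 and 8.36 log2 in wild type against 7.19 and 7.21 in knockout, and all knockout values were at least 0.90 below the wild-type ones. The change of −1.04 (SE 0.122, 95% interval −1.33 to −0.74, limma adjusted p = 0.00585) left 48.8% of the wild-type signal. The knockout arrays were 0.018 apart and the wild-type arrays 0.25.

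Dlx6 lies next to Dlx5 in the genome, and the pair is known to share enhancers. Dlx6 was dim, at 2.78 and 2.88 in wild type against 2.13 and 2.64 in knockout, with knockout replicate 1 below the filter value. Its value was −0.44 (95% interval −0.88 to 0.0011, limma adjusted p = 0.182) and it was not called. The transcripts listed between and beside the pair, Dlx6os1 and Dlx6os2, were under the filter and were not tested.

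Dlx3, a regulator of tooth, hair and bone, was also dim, at 2.53 and 2.37 in wild type and 2.87 in each knockout array. The difference of 0.42 (95% interval 0.15 to 0.69, limma adjusted p = 0.0628) was not called. No fold is given for Dlx3 and Dlx6, because signal this near the filter value bounds a change poorly. Itga3, the integrin gene next to Dlx3 in the RefSeq order, had a value of 0.62 and an adjusted p of 0.0622.

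Msx2, a homeodomain factor of skull and limb that is a known target of BMP signalling, read 7.29 and 7.77 log2 in wild type against 5.94 and 5.71 in knockout. Both knockout arrays were lower, with 1.35 between the nearest values. The change was −1.70 (SE 0.183, 95% interval −2.15 to −1.26, limma adjusted p = 0.00433), a 3.26-fold fall to 30.7% of the wild-type signal. Among all decreases it ranked 51, and Dlx5 ranked 160. When all probe sets were fitted together, the adjusted p of Msx2 was 0.0635 and that of Dlx5 was 0.0711, while both were called in the other 13 alternatives. In that fit 1 of the 7 genes was called, Sp7.

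**Figure D2:**
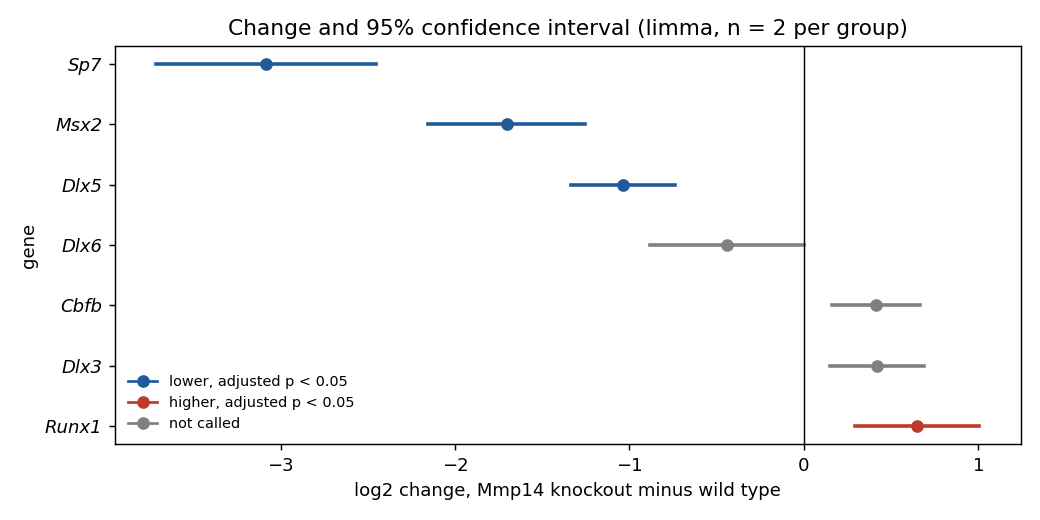
Change of each gene (vertical axis) in log2 units, knockout minus wild type (horizontal axis), as a point with its 95% confidence interval from limma. The intervals of Sp7, Msx2 and Dlx5 lie below 0, that of Dlx6 reaches 0.0011, and those of Cbfb, Dlx3 and Runx1 lie above 0, of which only Runx1 was called after adjustment.

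The figure of adjusted p-values shows how each gene stood under other processing. Sp7 stayed on the called side in 14 of 14 alternatives, Msx2 and Dlx5 in 13 each, Runx1 in 7 and Cbfb in 3. Dlx3 and Dlx6 were called in 0 of the 13 alternatives that kept them, the stricter filter having removed both. None of the 7 genes changed direction in any alternative, but only the alternatives that changed the normalization could have shown a reversal. The alternatives that kept all arrays and their normalization left each change as it was. Leaving out an array cannot reverse the direction of a gene whose groups do not overlap, as in all 7.

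**Figure D3:**
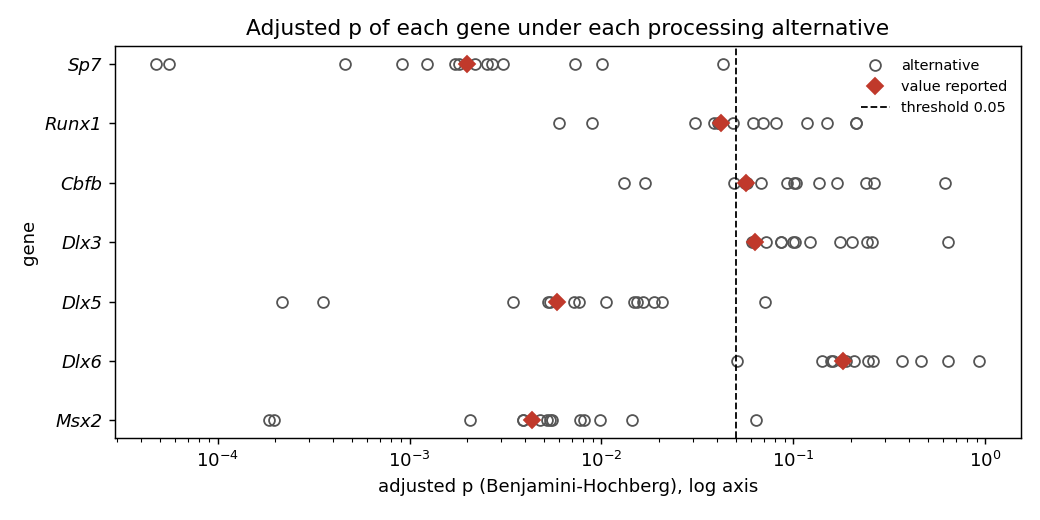
Adjusted p (horizontal log axis) of each gene (vertical axis) in the reported limma fit, drawn as diamonds, and in each alternative, drawn as open circles, with a dashed line at 0.05. Sp7 lies to the left of the line throughout, and Runx1 and Cbfb have circles on both sides.

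The other RUNX, DLX, MSX and SP genes had 1 call, Runx3. Of 13 relatives, 11 had a probe set of their own and 6 were tested; 1 fell, 0 rose and 5 were not called in limma, with 1 at an unadjusted p under 0.05, and the median was 0.09. The share called was 16.7%, against 11.3% of all genes. This list and the lists below were chosen with earlier results of these data known. Their shares therefore describe the lists and are no test of them. Runx3, the third RUNX gene, read 3.41 and 3.20 in wild type against 2.73 and 2.77 in knockout. Its change was −0.56 (SE 0.116, limma adjusted p = 0.0343), opposite in sign to that of Runx1, and the difference between the genes was not tested. The Runx3 call was lost on leaving out wild type replicate 1 (adjusted p = 0.0897), knockout replicate 1 (0.144) or knockout replicate 2 (0.104), and with no filter (0.0530). Dlx2 (0.17) and Sp3 (0.18) were not called, and Dlx4, Msx3, Sp5, Sp8 and Sp9 were under the filter.

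Other transcription factors and cofactors of bone formation moved in both directions. Of 45 listed, 36 were tested, of which 5 rose, 5 fell and 26 were not called (27.8% called, against 11.3% of all genes), with a median of 0.0037. Lef1, a nuclear partner of beta-catenin, fell from 5.45 and 5.61 log2 to 3.83 and 3.92 (−1.66, limma adjusted p = 0.00120). Fosl2, an AP-1 protein of osteoblasts, fell from 9.47 and 9.49 to 8.18 and 8.16 (−1.31, 0.00155). Zbtb16, a zinc finger gene, fell by 0.81 to a mean below the filter value, and its call was lost on leaving out wild type replicate 1 (adjusted p = 0.0504) or 2 (0.102) or knockout replicate 2 (0.0879). Osr2 (0.93), a factor of palate and joint, and Gli2 (0.90), a hedgehog effector, rose. Atf4 (−0.32) and the beta-catenin gene Ctnnb1 (−0.04) were not called, nor was Prrx1 (−0.01), a marker of limb mesenchyme that read 10.1 to 10.2 in the 4 arrays.

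Of 33 genes known to repress or limit these factors, 27 were tested, and 3 rose, 4 fell and 20 were not called (25.9% called, against 11.3% of all genes), with a median of −0.07. Pparg, the master factor of fat cells, read 4.23 and 4.73 in wild type against 6.84 and 6.74 in knockout, a rise of 2.31 (SE 0.177, limma adjusted p = 0.00158). Sox9, the cartilage factor that can restrain RUNX2, read 8.10 and 8.42 in wild type against 10.1 and 10.2 in knockout, a rise of 1.92 (SE 0.140, limma adjusted p = 0.00135). Snai2, a zinc finger repressor, rose by 0.74, a call lost on leaving out knockout replicate 1 (adjusted p = 0.0756). Twist1, whose protein holds RUNX2 inactive in early progenitors, fell by 1.02 (limma adjusted p = 0.00320), and the ubiquitin ligase gene Smurf2 fell by 0.91 (0.00576). Repressors therefore stood on both sides, Twist1 with the genes that fell and Sox9 with those that rose.

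Genes that osteoblasts express downstream of RUNX2 and SP7, or in bone more widely, also split. Of 37 listed, 27 were tested, and 4 rose, 8 fell and 15 were not called (44.4% called, against 11.3% of all genes). The median was −0.16, against −0.0041 over all genes tested. Alpl, the alkaline phosphatase needed for mineral, fell from 7.66 and 7.50 log2 to 5.77 and 5.87 (−1.76, limma adjusted p = 0.00104), and its second probe set gave −1.06. Tnn, which encodes tenascin-W, fell by 3.08 and the Wnt inhibitor gene Notum by 2.40, while the second probe set of Notum gave −0.30. Mmp13, a collagenase gene of hypertrophic cartilage and bone, rose instead, from 5.17 and 4.75 to 8.10 and 8.50 (3.34, limma adjusted p = 0.000993). Dmp1, a matrix gene of osteocytes, rose to 5.57 and 4.59 from a wild-type mean of 2.12 under the filter value, so no fold is given. The main bone collagen genes Col1a1 (−0.16) and Col1a2 (−0.20) were not called. Bglap (osteocalcin) and Ibsp (bone sialoprotein), which mark mature osteoblasts, had means between 1.44 and 1.86 log2 in both groups, under the filter value, and were not tested.

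BMP and Wnt pathway genes, among them Wnt feedback genes and BMP target genes, had the highest median size of change, 0.73 log2, of the 5 other lists. Of 27 listed, 26 were tested, and 5 rose, 9 fell and 12 were not called (53.8% called, against 11.3% of all genes). Because the list was chosen with earlier results of these data known, that share is a description and no test. The median change was −0.22. Over all genes tested the median size of change was 0.18. The Wnt feedback genes Nkd2 (−4.45), Axin2 (−3.78) and Dkk2 (−2.41) fell, and the second probe set of Axin2 gave −1.31. The R-spondin genes Rspo3 (3.19) and Rspo2 (2.29), whose products enhance Wnt signalling, rose. On the BMP side, named after their values were seen, the ligand gene Bmp7 fell from 8.02 and 8.16 to 6.17 and 6.54 (−1.74, limma adjusted p = 0.00220). The ligand gene Bmp4 (−0.70) and the BMP target Id1 (−0.78) also fell. The ligand genes Bmp5 and Bmp2 pointed the other way without a call in the reported fit. Bmp5 read 6.03 and 5.18 in wild type against 6.49 and 6.82 in knockout (1.05, limma adjusted p = 0.0663). On leaving out wild type replicate 1 its change was 1.47. Bmp5 was called with the stricter filter on dim genes (limma adjusted p = 0.0163) and with trend and robust eBayes (0.0190). It was not called with no filter (0.0904) or with the replicate block (0.0992). Bmp2 had a difference of 0.37, with the arrays of the groups overlapping. The dim ligand gene Bmp6 had a difference of −0.22 and was not called. Bmp4 lost its call on leaving out replicate 1 of wild type (adjusted p = 0.0503) or of knockout (0.0823), and Id1 on leaving out replicate 1 of knockout (0.0520). The receptor genes Bmpr1a (0.34) and Bmpr2 (0.08) were not called.

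**Figure D4:**
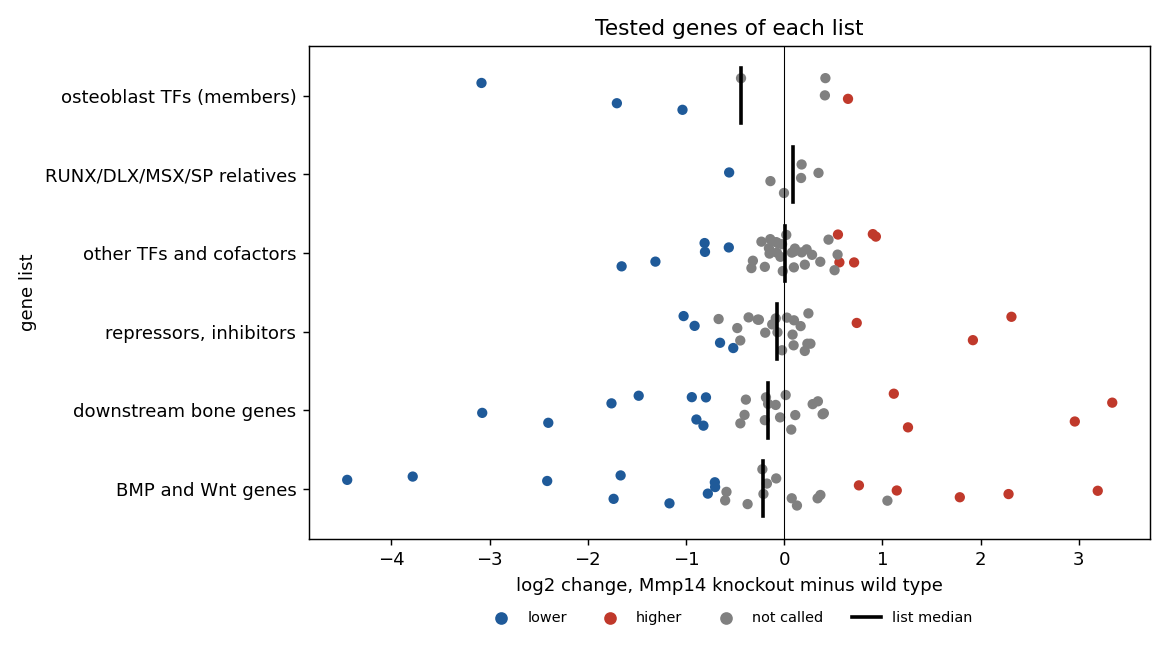
Log2 change, knockout minus wild type (horizontal axis), of every tested gene of the 7 osteoblast transcription factors and of the 5 other lists (vertical axis), coloured by call, with a black line at each list's median. Called genes lie on both sides of 0 in every list except the relatives, where the only called gene is Runx3.

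The genes with the 4-array pattern most like that of each called factor were found by the Euclidean distance between values centred on each gene's mean. Nearest to Sp7 were Mmp14 itself (distance 0.523 log2), the sulfatase gene Arsi (0.601) and the BMP family gene Bmp3 (0.755), with changes of −2.99, −2.53 and −3.00. Nearest to Msx2 were Tasp1 (0.220), C130021I20Rik (0.235) and Ism1 (0.236). Nearest to Dlx5 were Tmeff1 (0.0665), whose second, dimmer probe set gave −0.20, Sh3kbp1 (0.0759) and Sfxn1 (0.121). Nearest to Runx1 were Gm5176 (0.0446), Itga3 (0.0587) and Cpeb1 (0.0606). Of the genes nearest to Runx1 only Gm5176 was called (limma adjusted p = 0.0307). The call was lost on leaving out wild type replicate 2, knockout replicate 1 or knockout replicate 2. The wild-type mean of Gm5176, 2.20 log2, was under the filter value, which the gene passed through its knockout values of 2.77 and 2.96. The distances describe 4 arrays in 2 groups.

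The cells were checked against markers of the labelled type and of others. Of 14 measured skeletal stem and stromal markers, 13 had means at or above the filter value, and 5 rose, 1 fell and 7 were not called (46.2% called, against 11.3% of all genes). The filter value was reached by 12708 of all 22180 genes with a probe set of their own, so such counts do not identify a cell type. Pdgfra (1.77) and Cxcl12 (1.81) rose and Lepr (−2.26) fell, and the summed linear signal of the list was 3485 and 3537 in wild type against 4384 and 4198 in knockout. Chondrocyte markers were above the filter value in 10 of 10, with sums of 3725 and 3624 against 3841 and 4199, and 2 rose, 1 fell and 7 were not called (30.0% called). Sox9 (1.92) and Sox5 (0.83) rose. Acan fell from 9.70 and 9.70 in wild type to 7.40 and 8.07 in knockout (−1.97, limma adjusted p = 0.00469), which the sums do not show. Pericyte and smooth muscle markers were above the filter value in 6 of 6, with sums of 3914 and 3885 against 3418 and 3665. Of these 6, 0 rose, 1 fell and 5 were not called (16.7% called, against 11.3% of all genes). Rgs5 fell by 1.07 (limma adjusted p = 0.0102), and its second, dimmer probe set gave −0.07. Adipocyte markers summed to 52.9 and 61.3 in wild type against 158 and 147 in knockout, where Plin1 and Cidec were under the filter value. Without Pparg the other 6 summed to 34.2 and 34.9 in wild type against 43.0 and 40.3 in knockout. Of 5 tested adipocyte markers, Pparg and Lpl (0.95) rose, and Cebpa (0.40), Fabp4 (−0.07) and Adipoq (−0.11) were not called. The call of Lpl was lost on leaving out wild type replicate 2 (change 0.84), and its second, dimmer probe set gave −0.055. Of 8 leukocyte and macrophage markers, 4 were at or above the filter value, and 0 of these were called in limma, with 1 at an unadjusted p under 0.05, while Ptprc, Adgre1, Itgam and Cd3e were under it. Cd68, a macrophage marker, had group means of 4.63 log2 in wild type against 4.51 in knockout. The 8 markers had sums of 63.6 and 59.2 against 52.8 and 60.1. Endothelial markers were at or above it in 1 of 6, Vwf, with Pecam1 and Cdh5 under it and sums of 22.4 and 24.4 against 23.3 and 22.9. Skeletal muscle markers were at or above it in 2 of 6, Ckm and Pax7, with Myod1, Myog, Myf5 and Ttn under it. The sums were 29.6 and 33.4 against 44.3 and 44.9, and they include Pax7, the only muscle marker called. Ckm (0.19, limma adjusted p = 0.627) was not called. Pax7, a factor of muscle satellite cells and of neural crest, read 3.17 and 3.12 in wild type against 4.55 and 4.36 in knockout, a rise of 1.31 (limma adjusted p = 0.00221). Osteoclast markers were at or above it in 2 of 6, Acp5 and Mmp9, with sums of 66.0 and 78.8 against 59.5 and 64.6. Mmp9 (0.76) was called, a call lost on leaving out wild type replicate 1 (change 0.70) or knockout replicate 2 (0.63). Acp5, brighter than Mmp9 in wild type (mean 5.53 log2 against 3.11), pointed the other way without a call (−0.56, limma adjusted p = 0.0528). The part of these shifts in the changes of Sp7, Msx2, Dlx5 and Runx1 was not tested.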

How the data were processed

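RNA of 4 samples was hybridized as biotin-labelled cDNA to Affymetrix arrays, per the labels' protocols. The authors deposited log2 intensities per probe set; their normalization is not given in the sources used here, and the tools in the submitters' processing notes are limma and oligo. The log2 scale was read from the values (0.43 to 12.2, array medians 2.32 to 2.37). Arrays have no read depth, so their number limits the precision.

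Of 41345 probe sets, 23521 had 1 gene symbol in the platform annotation, 1814 several and 16010 none listed. Each gene was represented by its brightest probe set on average, and was tested where that mean reached the median of all row means, 2.34 log2. The groups were tested with limma 3.58.1 under R 4.3.3 (lmFit, eBayes, two-sided, no block, 2 residual degrees of freedom). The procedure was tested on data simulated under the model that limma assumes, which cannot check that model for these arrays. The 14 alternatives changed the filter, normalization, probe set rule, variance model, replicate block, null fold (treat, 1.2) or array set.

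The genes, lists and tests were chosen with earlier results of these data known. All 7 measured factors were named, then Mmp14, up to 5 called genes of each list with the largest change, the 3 genes nearest in pattern to each called factor, and tested genes beside a factor in the RefSeq annotation (GRCm38.p6). Other genes were named after their values were seen, and the sex-linked genes were added after seeing the data. Probe set coordinates are left out, since no source names the array's genome build.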

Additional observations from a re-analysis of the deposited data

How the results depend on the processing

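When all probe sets were fitted together, 218 probe sets were called in place of 1439 genes, and the counts were 1 for the osteoblast transcription factors, 0 for their relatives, 2 for other transcription factors and cofactors, 2 for repressors, 3 for downstream genes and 7 for BMP and Wnt genes. Against a null fold of 1.2 (treat), 605 genes were called, with 0 relatives, 6 other factors and 4 repressors. The count of relatives was also 0 without a filter, with the stricter filter and with the replicate block; limma gave 1 relative at an unadjusted p under 0.05 in each of these fits, but 0 with the stricter filter, which removed Runx3. Leaving out 1 array at a time, with the lone array assumed to vary like the other group, gave 687 to 1131 genes, 3 to 4 osteoblast transcription factors, 0 to 1 relatives (without wild type replicate 1 the relative called was Sp4, which rose by 0.61, not Runx3), 6 to 7 other factors, 4 to 8 repressors, 9 to 11 downstream genes and 10 to 16 BMP and Wnt genes. The sign changed in 3 uncalled values: Uty without wild type replicate 1 (0.083; lowest on leaving out 1 array, −0.58), Sp1 without wild type replicate 2 (0.0088; lowest −0.013) and Clic5 without Mmp14 knockout replicate 2 (−0.014; highest 0.39). The replicate numbers did not pair the arrays (deviations of same-numbered arrays correlated at −0.04), and the replicate block gave 1057 calls and 3 of the osteoblast factors, without Runx1 (adjusted p = 0.0809), and ended the calls of Runx3, Zbtb16, Eif2s3y and Gm5176. The cause of these differences was not tested. Signal near the filter value limits what Dlx3 and Dlx6 can show.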

Other observations

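The annotation lists 2 probe sets for both Msx1 and its antisense transcript Msx1os, so neither gene can be named from them. One read 4.67 and 4.60 log2 in wild type against 6.24 and 6.39 in knockout, a difference of 1.68 (SE 0.118, limma adjusted p = 0.0317, all probe sets fitted together). The other was dim, at 2.10 and 1.94 in wild type against 2.17 and 2.83 in knockout, and was not called (0.48, adjusted p = 0.513). The first probe set was higher in both knockout arrays, while Msx2 was lower in both.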
